A study of Mus musculus with 12 samples.

Results

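The comparison of the auditory nerve at P21 with the auditory nerve at P10 used 4 of the 12 microarrays in a developmental series of the mouse, 2 arrays at P21 and 2 at P10. Both stages came from CBA/CaJ mice of either sex, a strain with good hearing into old age, and no array carried a mutation, drug or surgical treatment. By the study's description, each array held total RNA from the left and right cochlea of 1 mouse, pooled before labelling, which would make 2 mice per stage. The sex-linked transcripts given below do not match this for every array. The outer bony shell, the lateral wall and most of the sensory epithelium had been dissected away, and the central core of the cochlea, the modiolus, was kept. The sample therefore contained the nerve together with the bone, marrow, vessels and connective tissue around it. The other 8 arrays, 2 each at P0, P3, P7 and P14, entered the estimate of the spread.

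The auditory nerve carries the output of the hair cells to the brain stem. Its neurons are the spiral ganglion neurons, its peripheral stretch is myelinated by Schwann cells, and its central stretch by oligodendrocytes among astrocytes. Mice are born deaf. The ear canal opens and hearing begins between these ages, while myelin thickens, nodes of Ranvier and fast potassium channels are put in place, and the bone of the inner ear finishes its growth. In bulk tissue, fewer cells of a type and less RNA per cell cannot be told apart, and the same holds for every group of genes below.

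The values were RMA signals on a log2 scale, so that a difference of 1 is a doubling. Of 45101 probe sets, 64 were control probe sets and 45037 were tested with limma, with the spread taken from all 12 arrays. A probe set was called where the p-value adjusted by Benjamini and Hochberg over all 45037 was below 0.05 and the fold was above 1.5. Between P21 and P10, 5041 probe sets passed, 11.2% of those tested, with 2020 higher at P21 (4.49%) and 3021 lower (6.71%). An unadjusted p below 0.05 was reached by 14801 probe sets. Without P10 replicate 2 there were 2341 calls, 882 higher and 1459 lower, and without P10 replicate 1 there were 2003 lower. With the brightest probe set standing for each of 18193 genes, 1889 genes were called (10.4%), 1032 higher (5.67%) and 857 lower (4.71%). The median change over these genes was 0.07. Every list count below is to be read beside these shares of 5.67% higher and 4.71% lower. In all 5041 called probe sets the 2 arrays of P21 lay wholly above or wholly below the 2 arrays of P10, which was also true of 59.2% of all probe sets. Replicate arrays correlated at 0.9911 at P21 and 0.9959 at P10, and the stages ranged between 0.9911 and 0.9962. Nothing in the sources used here stated a batch or a scan date. With 2 arrays per stage the p-values describe the spread between replicate arrays, pooled over all 12. The P21 pair had the lowest correlation of any stage, so the pooled spread may be too small for it.

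Several markers of the labelled tissue were high on all 4 arrays, but not every one. Prph ranged between 6.06 and 6.32, Gfap at its brightest probe set between 7.19 and 7.38, and Slc17a7 between 7.17 and 8.18. Nefl, the light neurofilament chain of large axons, ranged between 13.54 and 14.0, and Pmp22, a protein of Schwann cell myelin, between 14.14 and 14.38. Mbp, the myelin basic protein shared by both kinds of myelin, lay between 14.31 and 14.41. Mobp, found in central myelin, lay between 11.84 and 13.03, so transcripts of peripheral and of central myelin were in the samples. How much of the central myelin RNA came from the nerve itself was not tested.

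Transcripts of the sex chromosomes did not match 1 mouse per array on 6 of the 12 arrays. Xist is made from the inactive X chromosome of females, and Eif2s3y lies on the Y chromosome. P21 replicate 1 had 12.28 for Xist and 9.52 for Eif2s3y, while P21 replicate 2 had 12.54 and 3.83. At P10, replicate 1 had 11.87 for Xist and 9.74 for Eif2s3y, and replicate 2 had 11.96 and 9.34. P21 replicate 1 and both P10 arrays thus carried both transcripts at high levels, with both above 7 on those 6 arrays. Another Y-linked gene, Kdm5d, had 7.93 and 3.94 at P21, against 8.24 and 7.98 at P10. How these arrays came to carry both was not tested. The 2 stages differ in their Y-linked level, with P21 replicate 2 the array that lacks it. With the Eif2s3y level as a covariate 3720 probe sets were called, 3537 of them shared with the fit without it, and with the Xist level 4884, of which 4755 were shared.

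**Figure D1:**
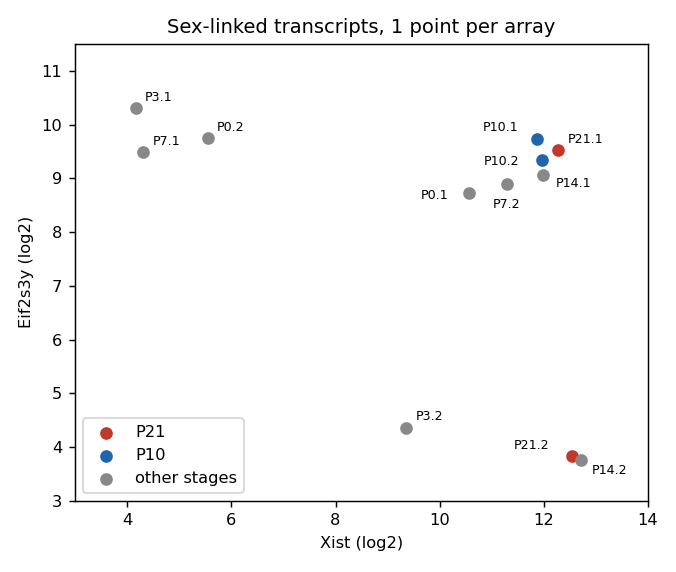
Xist against Eif2s3y on the log2 scale, 1 point per array, labelled by stage and replicate. P21 replicate 1 and both P10 arrays sit at the upper right with both transcripts above 9, and P21 replicate 2 sits at the lower right with 3.83 for Eif2s3y.

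The balance between the 3' and the 5' end of long-known control transcripts differed between the stages, and this measure stands beside every result that follows. The array carries separate probe sets for the ends of Actb, the cytoskeletal beta-actin, and of Gapdh, a glycolytic enzyme. In labelling that starts at the 3' end, a larger 3' minus 5' difference means less signal from the far end of the transcript. Actb had a 3' minus 5' difference of 2.32 and 2.03 at P21, against 0.99 and 0.97 at P10. The means were 2.17 ± 0.21 and 0.98 ± 0.01 (SD, n = 2 each), 1.19 apart, or 2.29-fold. Gapdh had 1.65 and 1.37 at P21, against 0.18 and 0.40 at P10, with means of 1.51 ± 0.20 and 0.29 ± 0.16, 1.22 apart, or 2.33-fold. The exact two-sided permutation test gave p = 0.333 for each, which is the smallest value that 2 arrays against 2 can give. Both P21 arrays lay outside the range of the other 10 arrays, which was 0.81 to 1.41 for Actb and 0.18 to 0.68 for Gapdh.

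For Actb and Gapdh the change was larger at the 5' end. The Actb 5' probe set was 1.57 lower at P21 and the 3' probe set 0.38 lower. The Gapdh 5' probe set was 1.03 lower, whereas its 3' probe set was 0.20 higher. Taken between the 3' and the middle probe set, the 2 stages were 0.49 apart for Actb and 0.57 for Gapdh. Pyruvate carboxylase had a 3' minus 5' difference of 3.36 at P21 and 2.15 at P10, with its 3' probe set 1.06 higher and its 5' probe set 0.15 lower. For the transferrin receptor the difference was 0.99 and 1.14 at P21, against 0.04 and 0.65 at P10, and the P21 arrays lay within the range of the other 10 arrays, 0.04 to 1.36. By contrast the bacterial poly-A RNAs spiked into the samples before labelling did not widen: lys had 2.12 at P21 and 2.10 at P10, and thr had 2.56 and 2.76. The levels of the dap, lys, phe and thr spikes were 0.70 to 1.24 higher at P21.

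**Figure D2:**
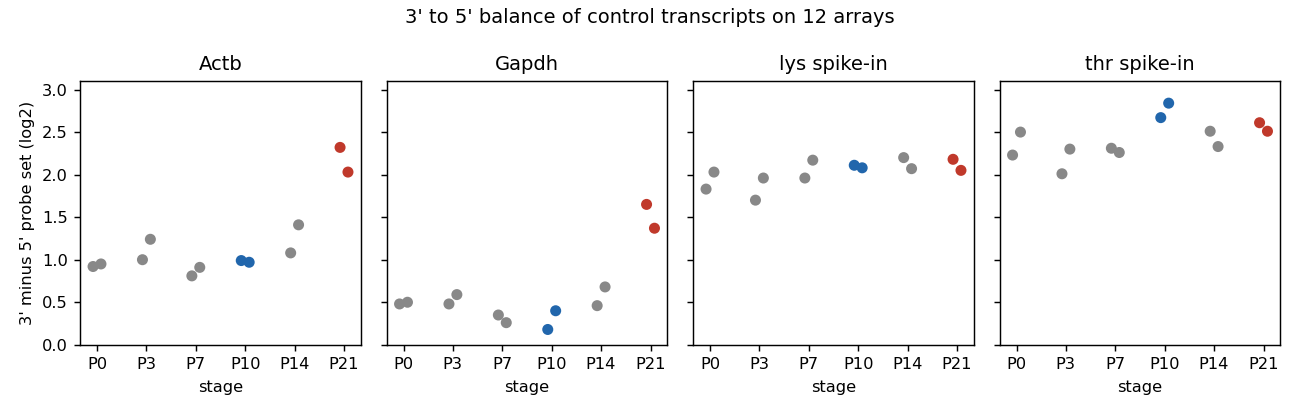
The 3' minus 5' difference (log2) of Actb, Gapdh and the spiked lys and thr RNAs on 12 arrays in order of stage, 1 point per array, P21 in red, P10 in blue. Both P21 arrays stand above all others for Actb and Gapdh, and within the range of the others for lys and thr.

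The stage and the balance cannot be told apart on these arrays. With the Actb balance as a covariate no probe set was called by limma, 3673 reached an unadjusted p below 0.05, and the median standard error of the change was 0.45 in place of 0.14. With the Gapdh balance 2 probe sets were called and 3435 reached an unadjusted p below 0.05. In a comparison that shares no array with this one, P7 against P0, the same covariates gave 4977 and 4318 calls, against 5011 without them. Of 158 called probe sets of named genes, none kept its call with the Actb balance and 1 did with that of Gapdh. Statements below that a call held without each array do not bear on this, since both P21 arrays share the shift in balance. Of the genes described below, Ifi27l2a, Stfa3, Nkx6-2, Slc4a11, Fdps, Sox2 and Ednrb changed sign in at least 1 of the 2 covariate fits. So did the macrophage genes P2ry12, C1qa, C1qb and C1qc. The part of the balance in the calls between P21 and P10 was not tested beyond these fits.

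Probe sets of 1 gene went apart more often here than in 3 other comparisons of the series, a split that was chosen after its values were seen. Among 5000 genes with several probe sets of mean signal above 6.75, the changes of a gene's probe sets differed by more than 2-fold in 746 genes (14.9%) for P21 minus P10, in 337 (6.74%) for P21 minus P14, in 9 (0.18%) for P14 minus P10 and in 115 (2.3%) for P7 minus P0. The brightest probe set of a gene with several was called higher at P21 in 6.45% of cases and lower in 5.27%. The other probe sets of the same genes were called higher in 3.59% and lower in 10.7%. The excess of lower calls thus came from these dimmer probe sets, with 1792 of the 3021. Of 9010 genes with several probe sets, 2632 had at least 1 called, 178 had all of them called the same way and 50 had calls in both directions. Gfap, the intermediate filament of astrocytes and some Schwann cells, had 3 probe sets that differed in size of change. The brightest over the 12 arrays had 7.19 and 7.34 at P21, against 7.38 and 7.37 at P10. A probe set as bright on these 4 arrays had 8.09 and 7.79 at P21, against 7.82 and 7.37 at P10 (change 0.35, adjusted p = 0.55). The third had 7.69 and 7.33 at P21, against 4.96 and 4.60 at P10, where it lay among the dimmest 25% of probe sets, so that the fold was at least 6.63 (adjusted p = 0.00018). This was the only call for Gfap.

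**Figure D3:**
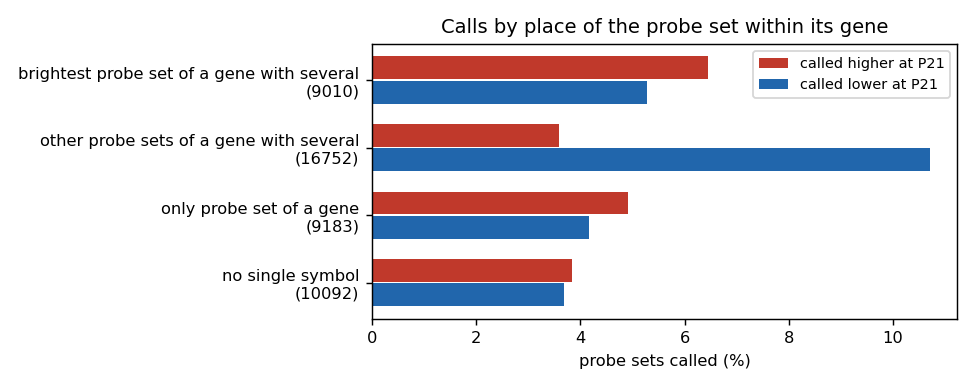
Share of probe sets called higher (red) and lower (blue) at P21 against P10 by the place of the probe set within its gene, with the number of probe sets in brackets. Only the other probe sets of genes with several were called lower far more often than higher, 10.7% against 3.59%.

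A smaller set of genes moved the same way at every probe set. Of 4315 genes with 3 or more, 38 with a gene name did so, 16 higher and 22 lower at P21, again a set picked after the values were seen. The lower ones included Igfbp4, a binding protein of insulin-like growth factors, at all 6 of its probe sets with changes between -1.94 and -0.75, and Mef2c, a transcription factor of muscle, neural crest and bone cells, at all 5 with changes between -2.17 and -1.06. Dpysl3, a growth-cone protein of young axons, fell by 1.40 to 1.58 at its 3 probe sets. The higher ones included Fmod, the collagen-binding proteoglycan fibromodulin, at all 6 with changes between 1.24 and 1.39. Slc2a1, the glucose transporter of the blood-nerve and blood-brain barriers, was 1.04 to 1.23 higher at its 3 probe sets, and Elavl3, a neuronal RNA-binding protein, 0.95 to 1.0 higher.

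Some genes of central glia were higher at P21. Of 16 astrocyte genes 5 rose and none fell, with a median change of 0.52, against 5.67% of genes called higher and a median of 0.07 over all genes. Without P10 replicate 2 the count was 2. Aldh1l1, a folate enzyme that marks astrocytes, had 9.09 and 9.22 at P21, against 7.80 and 7.40 at P10 (change 1.56 ± 0.19 SE, adjusted p = 0.00124). Its other probe set changed by 0.53 and was not called. Aldoc, the brain form of aldolase, had 12.15 and 12.52 at P21, against 11.57 and 11.41 at P10, and its second probe set rose too. Both genes lay above P10 on both P21 arrays, as did every probe set called higher. The mean of the astrocyte list was 10.88 and 10.93 at P21, against 10.45 and 10.16 at P10.

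Among 21 genes of oligodendrocytes and central myelin, 2 rose and 1 fell (2 fell without P21 replicate 1), with a median of 0.32. Over all genes 5.67% were called higher and 4.71% lower. Hapln2, which organises the matrix at central nodes of Ranvier, had 8.68 and 8.01 at P21, against 6.04 and 5.76 at P10 (5.45-fold, adjusted p = 0.000436). Nkx6-2, a transcription factor of myelinating oligodendrocytes, had 6.24 and 6.08 at P21, against 5.30 and 5.30 at P10. The P14 means, 6.33 for Hapln2 and 5.70 for Nkx6-2, lay between P10 and P21. Enpp6, a marker of newly formed oligodendrocytes, had 7.75 and 7.64 at P21, against 8.74 and 8.73 at P10 (2.06-fold lower, adjusted p = 0.00113), but its other probe set changed by -0.11. Klk6, a secreted protease abundant in mature oligodendrocytes, was outside the list and among the 12 largest rises. It had 10.07 and 9.63 at P21, against 6.86 and 6.23 at P10 (9.88-fold, adjusted p = 0.000111).

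Of 18 peripheral myelin genes none rose and 2 fell, beside 4.71% of all genes called lower, with a median of -0.09; 1 fell without either P10 array or P21 replicate 1. Pmp2, the fatty acid binding protein of myelin, was the one that held without each array. It had 7.19 and 6.08 at P21, against 9.52 and 10.41 at P10 (10.1-fold lower, adjusted p = 0.000814), after a mean of 4.4 at P0 and 10.36 at P7. Pmp22 changed by -0.14 (adjusted p = 0.396). Among 17 genes of Schwann cells and glial precursors, 1 fell and none rose (2 rose without P21 replicate 1), with a median of 0.14. The gene that fell was Gap43, a growth-associated protein of axons and immature Schwann cells, with 5.74 and 5.77 at P21, against 6.62 and 7.55 at P10. Of 20 genes of cholesterol synthesis, which feeds myelin growth, 2 rose and 1 fell with a median of 0.03. The shares over all genes were 5.67% higher and 4.71% lower. Dhcr7, the last enzyme of the pathway, was 0.87 higher, and Fdps, an early one, 0.90 lower. The other probe set of Fdps changed by -0.02 and was not called. The count of rises was 1 without P21 replicate 1 or any array of P0, P7 or P10.

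Neuronal genes were higher on P21 replicate 2 more than on P21 replicate 1. Of 31 genes of neuronal structure and synapse, 7 rose and 2 fell, with a median of 0.44. The list averaged 10.40 and 10.97 at P21, against 10.42 and 10.37 at P10, so P21 replicate 1 did not stand apart from P10. Both P14 arrays, at 10.83 and 10.77, lay above P10 and above P21 replicate 1. Without P21 replicate 1 the count of rises was 14, without P21 replicate 2 it was 3, without P10 replicate 1 it was 2 and without P10 replicate 2 it was 1, when no gene fell. Genes of cerebellar and brain stem neurons moved alongside: 2 of 18 rose, the list averaged 8.14 and 8.84 at P21, against 7.75 and 7.67 at P10, and 5 rose without P21 replicate 1 and 1 without any one of the other 3 arrays. Gabra6, a GABA receptor subunit of cerebellar and cochlear nucleus granule cells, had 6.92 and 9.92 at P21, against 5.24 and 4.80 at P10 (10.6-fold, adjusted p = 0.0105), a call lost without P10 replicate 2. Cbln1, a synaptic protein of granule cells, had 9.05 and 10.81 at P21, against 7.92 and 7.61 at P10, and lost its call without P21 replicate 2 or either P10 array. At P14 the list of cerebellar and brain stem neurons averaged 8.48 and 8.57, Gabra6 had 8.50 and 9.23, and Cbln1 had 9.86 and 10.27. The part of these brain stem or cerebellar transcripts in the neuronal counts was not tested. The same holds for RNA of such tissue in the lists of central glia above and of nodes, channels and receptors below.

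Among 20 genes of spiral ganglion neuron identity 3 rose and none fell, with a median of 0.34. This count was 8 without P21 replicate 1, 1 without P10 replicate 2, and 0 without P21 replicate 2 or P10 replicate 1. The list averaged 9.25 and 9.71 at P21, 9.10 and 9.05 at P10, and 9.48 and 9.54 at P14. Pou4f1, a transcription factor of a subset of type I neurons, had 8.32 and 9.09 at P21, against 7.69 and 7.89 at P10 (0.91 ± 0.23 SE, adjusted p = 0.0214), and lost its call without P21 replicate 2 or either P10 array. Gata3, a transcription factor of spiral ganglion neurons that is also made elsewhere in the cochlea, had 11.37 and 10.69 at P21, against 10.68 and 10.78 at P10, and the arrays overlapped.

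Genes of the node of Ranvier and the paranode, the gap in the myelin and its flanks where the action potential is renewed, came next. Of 18 genes 8 rose and none fell, with a median of 0.46, and 4 rose without P10 replicate 2. Sptbn4, the spectrin that anchors sodium channels at nodes, had 9.52 and 9.79 at P21, against 8.33 and 8.12 at P10 (1.43 ± 0.24 SE, adjusted p = 0.00457). Cntn2, an adhesion molecule beside the paranode, had 8.63 and 9.49 at P21, against 7.55 and 7.64 at P10, and 2 of its 3 other probe sets rose as well. Nfasc, the neurofascin of nodes and paranodes, had 10.31 and 10.46 at P21, against 9.48 and 9.08 at P10. Its other 2 probe sets changed by 0.49 and 0.67 and were not called. None of the 3 genes Sptbn4, Cntn2 and Nfasc lost its call when any one array was left out. Their means at P14, 9.16, 8.30 and 9.64, lay between P10 and P21. Scn8a, the sodium channel of mature nodes, had 10.93 and 11.74 at P21, against 10.15 and 9.70 at P10 (2.66-fold, adjusted p = 0.013), and was lost without P10 replicate 2 or P21 replicate 2. Cntn1, the paranodal contactin, was among the largest rises, with 10.03 and 10.28 at P21, against 7.95 and 7.40 at P10 (5.58-fold, adjusted p = 0.000733). Its other 2 probe sets, the brightest included, changed by 0.41 and 0.54 and were not called.

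Channels and receptors followed with fewer calls. Of 26 potassium and HCN channel genes 5 rose and 1 fell, with a median of 0.32, and 8 rose without P21 replicate 1. Without P10 replicate 2 there were 2 that rose and none that fell, and without P21 replicate 2 none fell. Kcnc1, a subunit of the fast Kv3 channels that let auditory neurons fire at high rates, had 11.69 and 12.37 at P21, against 10.51 and 10.46 at P10 (2.92-fold, adjusted p = 0.00277), after 7.22 at P0. Kcnab1, an accessory subunit of Kv1 channels, had 9.50 and 10.06 at P21, against 8.59 and 8.23 at P10. Both held without each array, though only 1 of the 3 other Kcnc1 probe sets was called and the other one for Kcnab1 was not.

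Sodium channel and pump genes numbered 14, of which 3 rose and 2 fell, with a median of 0.09. Without P10 replicate 2 there was 1 of each, and without P21 replicate 2 there was 1 that rose. Atp1b2, a sodium pump subunit of glia, was 1.04 higher, and Scn3b, a sodium channel subunit high in early life, 1.12 lower. Their other probe sets changed by 0.22 for Atp1b2 and -0.15 for Scn3b and were not called. Of 16 calcium channel genes 2 rose, beside 5.67% of all genes, with a median of 0.25. This was 4 without P21 replicate 1 and 1 without any one of the other 3 arrays or either P0 array. Cacng2, which carries AMPA receptors to synapses, had 9.23 and 9.93 at P21, against 8.06 and 8.07 at P10 (2.86-fold, adjusted p = 0.00113).

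Of 19 GABA and glycine receptor genes 3 rose and none fell, with a median of 0.51. The list averaged 7.04 and 7.81 at P21, against 6.61 and 6.36 at P10. Gabra6, described above with the genes of cerebellar and brain stem neurons, was 1 of the 3 that rose. Without P21 replicate 1 the count was 8, without P10 replicate 2 it was 1, and without either P7 array, which changes only the spread, it was 5. Gabra2 had 8.18 and 7.76 at P21, against 6.10 and 5.65 at P10 (4.27-fold, adjusted p = 0.00068), while its 4 other probe sets changed by 0.09 to 0.48. Of 15 ionotropic glutamate receptor genes 2 rose, beside 5.67% of all genes, with a median of 0.28. Gria3, an AMPA receptor subunit, was 1.0 higher at its brightest probe set and -1.01 at the other, which was not called. Grin2c, an NMDA receptor subunit, had 6.32 and 6.49 at P21, against 5.56 and 5.54 at P10, all below the array medians.

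Genes of axon growth ran the other way in part. Of 31 such genes 5 fell and 2 rose, beside 4.71% and 5.67% of all genes, with a median of 0.05. Without P10 replicate 1, P10 replicate 2 or P21 replicate 2 the count of falls was 3, and without P10 replicate 2 or P21 replicate 1 the count of rises was 1. Dpysl3 had 10.03 and 10.01 at P21, against 11.58 and 11.59 at P10 (2.96-fold lower, adjusted p = 0.000546). Sox4, a transcription factor of young neurons and glia, had 12.36 and 12.15 at P21, against 13.01 and 13.21 at P10, and 4 of its 7 other probe sets fell. Both held without each array. Their P0 means were 11.98 and 13.58, above both later stages.

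**Figure D4:**
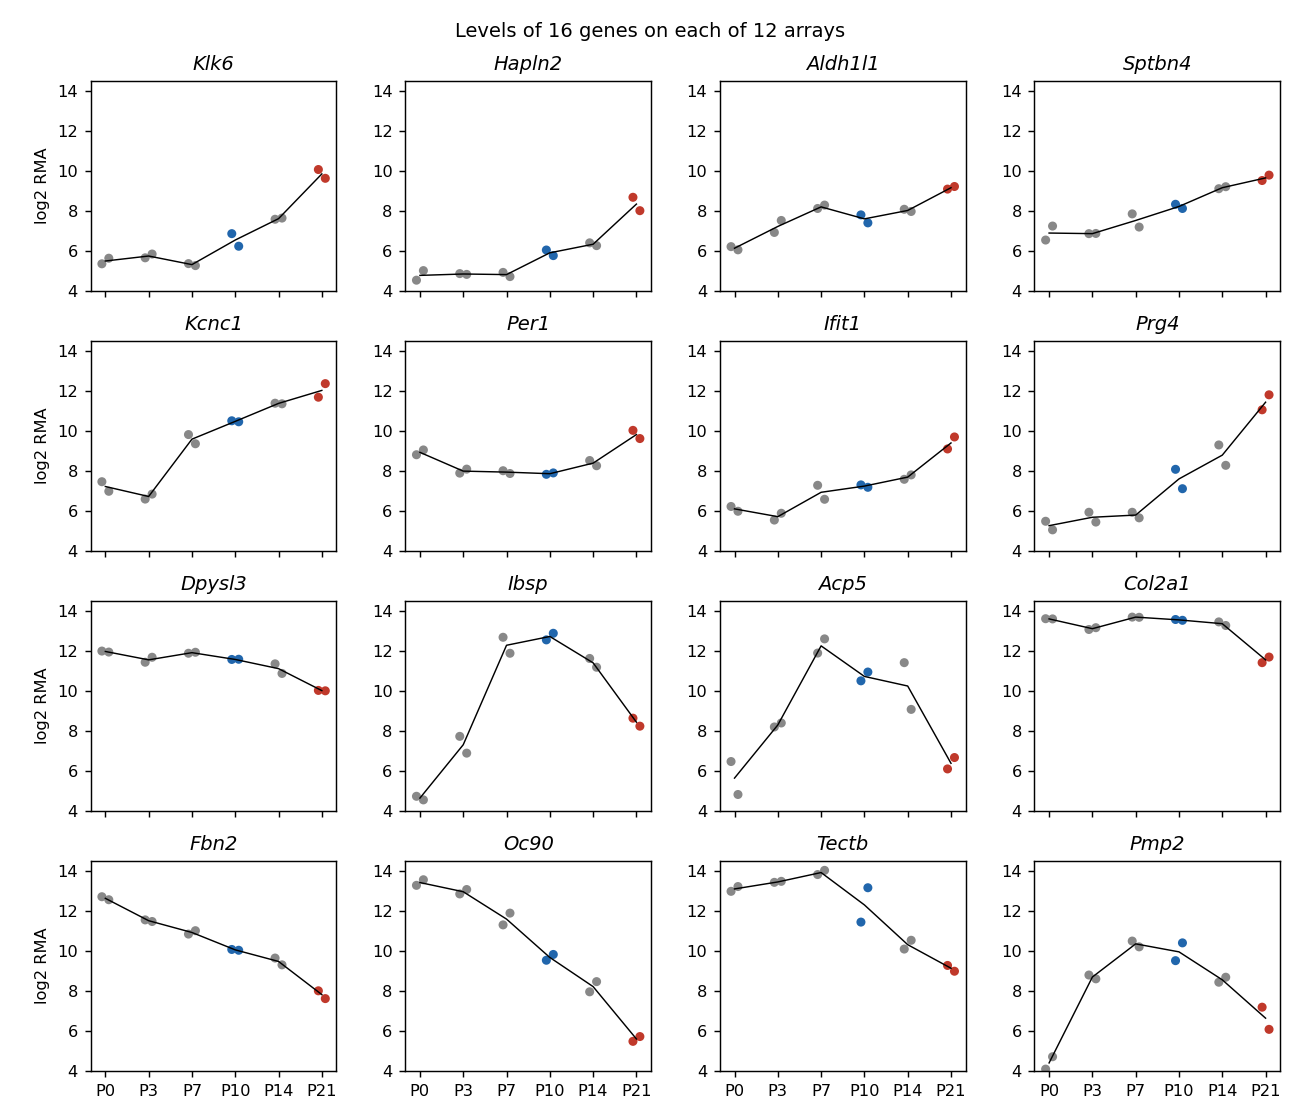
Log2 RMA levels of 16 genes, 1 panel each, with 2 arrays per stage from P0 to P21 and a line through the stage means, P21 in red and P10 in blue. The 8 genes from Klk6 to Prg4 are higher on both P21 arrays than on both P10 arrays and the 8 from Dpysl3 to Pmp2 lower. Oc90 and Fbn2 fall over the whole series, whereas Ibsp, Acp5 and Pmp2 have their highest means at P7 or P10.

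Bone genes were among the 12 largest falls, with Acp5, Ibsp, Panx3 and Mmp13. Of 16 genes of osteoblasts and osteocytes, 7 fell and none rose, with a median of -0.80, against 4.71% of genes called lower. No array changed this count by more than 1.5 times when left out. Ibsp, the bone sialoprotein that starts mineral deposition, had 8.64 and 8.24 at P21, against 12.56 and 12.89 at P10 (19.5-fold lower, adjusted p = 0.000182), and its other probe set fell by 1.18. Ifitm5, a membrane protein of osteoblasts, had 8.30 and 7.74 at P21, against 10.12 and 10.96 at P10. Sp7, the osteoblast transcription factor osterix, had 9.01 and 8.55 at P21, against 10.20 and 10.27 at P10 (2.74-fold lower, adjusted p = 0.00234). These genes had lain low at P0, with means of 4.64, 6.10 and 6.92, and reached 12.29, 11.35 and 10.47 at P7. Panx3, a channel of osteoblasts and cartilage cells, had 8.43 and 7.81 at P21, against 11.73 and 11.72 at P10, and all 3 of its probe sets fell.

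Osteoclasts dissolve bone. Of 19 genes of these cells 7 fell and none rose, with a median of -0.48, and the count was 3 without P10 replicate 2 and 4 without P10 replicate 1 or P21 replicate 1. Acp5, the acid phosphatase that identifies osteoclasts, had 6.10 and 6.67 at P21, against 10.51 and 10.95 at P10 (20.3-fold lower, adjusted p = 0.00323). Ctsk, the protease with which they dissolve bone collagen, had 9.26 and 9.27 at P21, against 11.39 and 11.74 at P10. Mmp13, the collagenase of bone and cartilage remodelling, was 10.4-fold lower (adjusted p = 0.0144) but lost its call without P21 replicate 1 or either P10 array.

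Matrix genes of connective tissue and cartilage split. Of 31 genes of fibrillar collagen and connective tissue, 13 fell and 2 rose, with a median of -0.59. Leaving out any one array did not move the 13 by more than 1.5 times. The 2 rises became 1 without P21 replicate 2 or either P10 array. Fbn2, the fibrillin of growing tissue, had 8.01 and 7.62 at P21, against 10.08 and 10.04 at P10 (4.74-fold lower, adjusted p = 0.00014), and its other probe set fell by 2.52. Col5a2, a minor fibrillar collagen, had 11.70 and 11.31 at P21, against 13.14 and 13.17 at P10. Fbln1, a fibulin of elastic matrix, had 9.59 and 10.17 at P21, against 8.35 and 8.35 at P10 (2.89-fold higher, adjusted p = 0.00078), but its other 2 probe sets were not called.

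Of 21 cartilage genes 8 fell and 2 rose, with a median of -0.24. Col2a1, the main cartilage collagen, had 11.42 and 11.70 at P21, against 13.58 and 13.54 at P10 (4.0-fold lower, adjusted p = 8.92e-05). Mia, a secreted cartilage protein, had 10.81 and 10.28 at P21, against 12.72 and 13.12 at P10. Acan, the large proteoglycan aggrecan, went up instead, with 10.21 and 10.57 at P21, against 9.05 and 8.62 at P10 (2.94-fold, adjusted p = 0.00441). Aggrecan is a cartilage proteoglycan that also lies in the nets around neurons. Prelp, a small proteoglycan that ties basement membrane to collagen, had 9.45 and 9.68 at P21, against 7.67 and 7.04 at P10. Prg4, the lubricin of joint and tendon surfaces, was the second largest rise among named genes, with 11.06 and 11.81 at P21, against 8.08 and 7.11 at P10 (14.3-fold, adjusted p = 0.000662).

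Genes of insulin-like growth factor signalling fell in 5 of 15 cases and rose in 1, with a median of -0.21. The 5 became 3 without P10 replicate 2 or P21 replicate 1, and the rise was lost without P21 replicate 2 or either P10 array. Igf1 had 11.48 and 10.68 at P21, against 12.30 and 12.36 at P10 (2.38-fold lower, adjusted p = 0.00487). Igfbp4 had 11.72 and 11.64 at P21, against 12.76 and 12.74 at P10. Grb10, an imprinted brake on growth factor receptors, had 9.46 and 9.33 at P21, against 10.56 and 10.76 at P10, after 12.47 at P0. Its other 2 probe sets changed by -0.53 and -0.36 and were not called. Of 40 cell cycle genes 4 fell and none rose, with a median of -0.77. The list averaged 7.56 and 7.55 at P21, against 8.21 and 8.27 at P10, yet P14 replicate 1 stood at 9.11 and P14 replicate 2 at 7.92. The wide pair at P14 enters the spread. The 4 calls became 1 without P10 replicate 1, 2 without P21 replicate 1 and 0 without P10 replicate 2 or P21 replicate 2.

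Genes of the structures beside the nerve changed strongly in a few cases. Oc90, the main protein of the otoconia made by vestibular and early cochlear epithelium, had 5.48 and 5.72 at P21, against 9.54 and 9.83 at P10 (17.0-fold lower, adjusted p = 8.92e-05), after 13.43 at P0. Tectb, a protein of the tectorial membrane, had 9.28 and 8.99 at P21, against 11.45 and 13.17 at P10 (9.03-fold lower, adjusted p = 0.00154). The 2 P10 arrays lay far apart for Tectb, yet both stood above both P21 arrays, as in every probe set called lower. Of 19 supporting cell and tectorial genes 2 fell and 1 rose, with a median of -0.14. The falls became 1 without either P10 array and the rise was lost without P21 replicate 2. Of 18 hair cell genes 1 rose, beside 5.67% of all genes, and none fell, with a median of 0.31. Without P21 replicate 2 there were 4 that rose.

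Of 18 genes of fibrocytes and lateral wall, which the dissection was meant to remove, 4 rose and 2 fell, with a median of 0.24. The rises became 2 without P10 replicate 2 and the falls 1 without either P10 array. Slc26a4, the anion exchanger pendrin, had 11.94 and 11.09 at P21, against 9.45 and 8.88 at P10 (5.10-fold, adjusted p = 0.00746), lost without P10 replicate 2. Slc4a11, a transporter of inner ear fibrocytes, had 9.08 and 8.95 at P21, against 7.82 and 7.79 at P10. Its other probe set changed by 0.29 and was not called. Pou3f4, a transcription factor of the mesenchyme around the nerve, had 10.54 and 10.44 at P21, against 11.34 and 11.31 at P10, and its other probe set fell by 2.56. Bpifa1, a secreted protein of airway and middle ear lining, was the largest rise among named genes, with 12.73 and 13.07 at P21, against 7.25 and 8.22 at P10 (35.9-fold, adjusted p = 0.00812). It stood at 13.08 already at P14, and its call was lost without P10 replicate 1.

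Macrophages clear debris in the growing ear. Of 22 macrophage genes 10 fell and none rose, with a median of -0.62, though without P10 replicate 1 only 3 fell and without P21 replicate 1 there was 1 that rose. Cd68, a lysosomal marker of macrophages, had 6.72 and 6.74 at P21, against 8.22 and 8.37 at P10 (2.96-fold lower, adjusted p = 0.00217). Fcgr3, an antibody receptor, had 8.78 and 8.84 at P21, against 9.79 and 9.68 at P10, and Trem2, a lipid receptor of microglia and osteoclasts, had 6.95 and 6.51 at P21, against 7.68 and 7.53 at P10. All 3 held without each array, though the other probe set of Trem2 changed by -0.25 and was not called. P2ry12, C1qc, C1qa and C1qb, also called lower, changed sign in both balance covariate fits. Osteoclasts come from the same lineage and share some of these genes. The lists of neutrophils, red cells, B cells and platelets had at most 2 calls in a direction, and on them P14 replicate 1 stood highest of the P10, P14 and P21 arrays, with a mean of 10.47 for the 17 neutrophil genes against 8.31 for P14 replicate 2. Within the falls, Stfa3, a stefin that blocks cysteine proteases in myeloid cells, had 4.97 and 5.47 at P21, against 10.42 and 9.60 at P10 (27.7-fold lower, adjusted p = 0.00141). Stfa3 belongs to a cluster of near-identical genes whose probes may share signal.

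Several genes of the interferon response were higher at P21. Interferons act through a response element that holds 2 copies of the letters TTTC spaced by 2 bases. Of 24 genes of this list 8 rose and none fell, with a median of 0.29, and 4 rose without P21 replicate 2 or either P10 array. Ifit1, which binds foreign RNA, had 9.10 and 9.70 at P21, against 7.30 and 7.18 at P10 (4.47-fold, adjusted p = 0.000946). Oasl2, an antiviral synthetase-like protein, had 6.83 and 7.2 at P21, against 5.36 and 5.17 at P10. Both held without each array, and so did Ifi27l2a, with 10.70 and 9.61 at P21, against 7.81 and 7.09 at P10. Ifit3 had 8.06 and 9.28 at P21, against 7.58 and 7.62 at P10 (adjusted p = 0.0423), lost without P21 replicate 2 or either P10 array.

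This element, TTTC followed by any 2 bases and TTTC again, was searched on both strands in RefSeq promoter windows of the GRCm38.p6 assembly, running 250 bases before to 50 after the start of a gene. It occurred in 1131 of 32851 windows (3.44%). Of the 24 interferon genes 19 had a window and 9 of those held it. Of the 8 that rose, 5 had a window and 3 held it, namely Ifit1, Ifit3 and Bst2. The windows of Ifit1, at chr19:34640639-34640938 on the plus strand, and of Ifit3, at chr19:34583279-34583578 on the plus strand, are shown as 2 neighbouring members of 1 family, and each holds the element at 2 places, which are in capitals.
Ifit1: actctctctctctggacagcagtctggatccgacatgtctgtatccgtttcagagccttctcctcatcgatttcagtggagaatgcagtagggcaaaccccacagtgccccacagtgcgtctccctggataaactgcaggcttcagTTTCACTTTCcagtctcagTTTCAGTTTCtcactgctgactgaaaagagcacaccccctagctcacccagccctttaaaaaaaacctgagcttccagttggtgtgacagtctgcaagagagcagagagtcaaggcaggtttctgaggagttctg
Ifit3: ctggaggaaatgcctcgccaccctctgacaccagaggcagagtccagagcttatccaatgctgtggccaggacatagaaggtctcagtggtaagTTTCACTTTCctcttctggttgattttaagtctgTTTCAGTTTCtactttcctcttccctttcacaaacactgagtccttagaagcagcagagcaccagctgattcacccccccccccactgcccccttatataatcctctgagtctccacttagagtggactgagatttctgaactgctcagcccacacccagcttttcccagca
A match describes the letters only and says nothing of binding in these tissues.

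Some clock genes and some genes induced by glucocorticoids were higher at P21, with Per1 in both lists. Of 17 clock genes 5 rose and none fell, with a median of 0.22, and 3 rose without P10 replicate 2. Per1, which closes the feedback loop of the clock and also answers to glucocorticoids, had 10.03 and 9.62 at P21, against 7.83 and 7.90 at P10 (3.89-fold, adjusted p = 0.000294). Per2 had 8.22 and 8.0 at P21, against 6.90 and 6.66 at P10, and Nr1d1, a repressor in the second loop, had 7.68 and 8.21 at P21, against 7.12 and 6.87 at P10. The hour at which the tissue was taken was not given in the sources used here. The clock acts through the E-box, the letters CACGTG, found in 2349 of 32851 windows (7.15%). It was in 5 of the 15 clock genes with a window and in 1 of the 3 called ones, Per1, whose window at chr11:69098699-69098998 on the plus strand is shown with the E-box in capitals.
Per1: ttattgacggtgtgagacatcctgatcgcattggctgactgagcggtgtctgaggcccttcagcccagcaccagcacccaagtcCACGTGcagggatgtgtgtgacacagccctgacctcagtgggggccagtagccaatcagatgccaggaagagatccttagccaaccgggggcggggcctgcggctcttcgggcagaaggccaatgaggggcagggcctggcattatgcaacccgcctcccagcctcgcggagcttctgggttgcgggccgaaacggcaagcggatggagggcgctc

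Of 16 genes of the glucocorticoid and stress response 7 rose and none fell, with a median of 0.46. The count was 3 without P10 replicate 2 and 4 without P21 replicate 2, and 1 fell without P10 replicate 1. Pdk4, which turns cells from glucose to fat, had 10.34 and 10.17 at P21, against 9.16 and 8.96 at P10 (2.29-fold, adjusted p = 0.00164). Arrdc2 had 7.87 and 7.69 at P21, against 6.59 and 6.59 at P10. Fkbp5, a chaperone of the glucocorticoid receptor, had 9.62 and 11.23 at P21, against 9.18 and 8.95 at P10, and lost its call without P21 replicate 2 or either P10 array.

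Heat shock genes rose in 5 of 12 cases and fell in none, with a median of 0.14. Without P10 replicate 2 or P21 replicate 2 the count was 3, and 1 fell without P21 replicate 2. Hspa1b, an inducible chaperone of the Hsp70 family, had 9.62 and 10.68 at P21, against 8.49 and 8.62 at P10 (3.02-fold, adjusted p = 0.00422), with all 3 probe sets higher. Hspa1a, a near-identical copy whose probes may share signal, had 8.91 and 9.54 at P21, against 7.73 and 7.55 at P10. Immediate early genes, which cells switch on within minutes of a stimulus, went the other way: 5 of 22 fell and none rose, with a median of -0.26. The falls became 3 without P10 replicate 2, and 2 rose without P21 replicate 1. Egr1 had 10.54 and 10.86 at P21, against 12.55 and 12.39 at P10 (3.41-fold lower, adjusted p = 0.00378), and Ier2 had 9.31 and 8.97 at P21, against 10.11 and 10.15 at P10.

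Hormone-related and barrier genes changed singly. Of 20 thyroid and retinoid genes 3 rose and 1 fell, beside 5.67% and 4.71% of all genes, with a median of 0.09. Without P21 replicate 2 or either P7 array there were 2 that fell. Dio2, the enzyme that makes active thyroid hormone and that hearing onset depends on in mice, had 10.48 and 10.77 at P21, against 12.43 and 12.63 at P10 (3.75-fold lower, adjusted p = 0.000182), after 7.34 at P0. All 3 of its probe sets fell. Ttr, the carrier of thyroid hormone made by choroid plexus, had 11.98 and 12.64 at P21, against 10.74 and 10.00 at P10 (3.84-fold, adjusted p = 0.00209), with all 4 probe sets higher. Its means were 12.16 at P3 and 9.89 at P14, so it did not rise steadily with age. Of 16 genes of choroid plexus and meninges 4 rose and none fell, with a median of 0.28. The rises became 2 without P10 replicate 1 or P21 replicate 2 and 1 without P10 replicate 2, and 1 fell without P21 replicate 2. Gh, the growth hormone of the pituitary gland, had 7.33 and 9.29 at P21, against 4.15 and 4.86 at P10, where it was among the dimmest 25%. The fold was at least 14.0 (adjusted p = 0.00429), and its 3 other probe sets rose as well. Gh had also been high at P0, with 9.66 and 8.33, and had means of 6.02 at P3, 6.48 at P7 and 6.50 at P14. Gcg, the glucagon precursor, had 4.95 and 4.60 at P21, where it was dim, against 8.71 and 9.66 at P10, at least 21.3-fold lower (adjusted p = 0.000263).

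Of 23 genes of endothelium and pericytes 4 rose and 4 fell, with a median of -0.04. Rises became 2 without P21 replicate 2 or either P10 array, and falls became 2 without P10 replicate 2 or P21 replicate 1. Abcb1a, the drug exporter of barrier vessels, had 10.22 and 10.71 at P21, against 9.39 and 9.07 at P10 (2.35-fold, adjusted p = 0.00311). Emcn, a sialomucin of veins and capillaries, had 9.97 and 9.75 at P21, against 10.79 and 10.89 at P10 (1.97-fold lower, adjusted p = 0.00245).

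**Figure D5:**
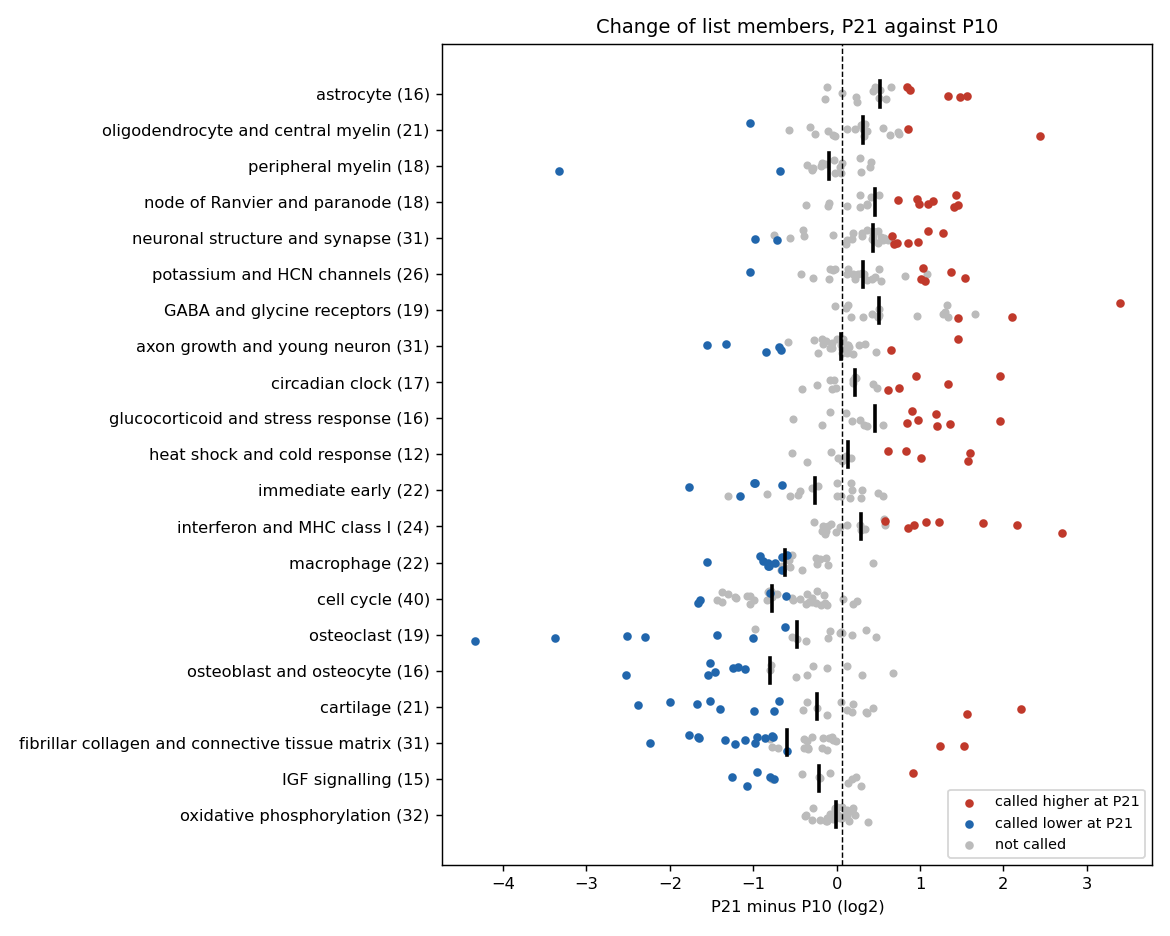
Change between P21 and P10 (log2) of the members of 21 gene lists, 1 point per gene by its brightest probe set, with the number of genes in brackets. Red points were called higher, blue points lower and grey points not called, a black bar marks the list's median and the dashed line the median of all genes, 0.07. The node, interferon, clock and glucocorticoid lists hold no blue point and the osteoblast, osteoclast, macrophage and cell cycle lists no red one.

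The study chose 13 genes of neural development and progenitor cells for PCR. It measured them in adult nerves 3 days after injury with the drug ouabain and in controls, not across postnatal ages. Between P21 and P10 none of the 13 was called by limma at its brightest probe set with all arrays. An unadjusted p below 0.05 was reached by 3 of them. For 6 of the 13 another probe set was called, namely Gfap, Nedd4l and Calb1 higher and Ednrb, Vim and Dcx lower at P21. The called probe set of Calb1 had low signal, with 4.84 and 4.29 at P21, against 3.89 and 4.05 at P10. At the brightest probe sets, there was 1 that rose without P10 replicate 2 or P21 replicate 1, and 1 that fell without P21 replicate 2. Sox2, a progenitor and glial transcription factor, changed by 0.29, Ngfr, the low-affinity neurotrophin receptor of Schwann cells, by 0.43, and Nes, the intermediate filament nestin, by -0.14. Foxd3, a neural crest factor, changed by -0.01. Ednrb, an endothelin receptor of glia and melanocytes, changed by 0.04 at its brightest probe set. Another of its probe sets was called lower, with 6.23 and 6.59 at P21, against 8.43 and 8.26 at P10 (3.82-fold, adjusted p = 0.00302), and the last changed by -0.78 and was not called. Vim, the intermediate filament vimentin, changed by -0.16 at its brightest probe set, and another, with 11.19 and 11.84 at P21, against 12.53 and 12.56 at P10, was called lower (adjusted p = 0.00527). Sox2, Foxd3 and the brightest probe set of Ednrb changed sign under some settings. A missed threshold does not show that these genes were equal at the 2 ages. Of 11 histone deacetylase genes 3 rose and 1 fell, with a median of 0.10, and the fall was lost without P21 replicate 1 or either P10 array. Hdac11 had 9.07 and 9.19 at P21, against 8.08 and 8.23 at P10 (1.97-fold, adjusted p = 0.00238), and its other probe set rose too. Hdac5 had 9.86 and 9.80 at P21, against 9.07 and 9.09 at P10. Hdac1 changed by -0.30 and was not called. Hdac2 changed by -0.32 at its brightest probe set, which was not called, while another was called lower, with 9.96 and 9.80 at P21, against 10.84 and 10.87 at P10 (change -0.98, adjusted p = 0.000661).

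None of 32 genes of oxidative phosphorylation was called, with a median of -0.01 and 5 at an unadjusted p below 0.05, and none of 17 cytosolic ribosomal protein genes, with a median of -0.22 and 7 at an unadjusted p below 0.05. The level of the ribosomal list was 12.79 and 12.61 at P21, against 12.84 and 12.89 at P10.

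An earlier step of development, P7 against P0, was fitted on the same table and shares no array with P21 against P10. It gave 5011 calls (11.1%), 2451 higher at P7 (5.44%) and 2560 lower (5.68%). Without P7 replicate 1 there were 2929, 1629 higher and 1300 lower, and without P0 replicate 1 there were 1690 lower. Of the 2020 probe sets higher at P21, 259 were also higher at P7 (12.8% of the 2020 and 10.6% of the 2451), and 207 were lower at P7 (10.2% of the 2020 and 8.09% of the 2560). Of the 3021 lower at P21, 422 had been higher at P7 (14.0% of the 3021 and 17.2% of the 2451), and 183 had been lower (6.06% of the 3021 and 7.15% of the 2560). Ibsp, Acp5 and Pmp2 were called higher at P7 than at P0, by 7.65, 6.61 and 5.96, and lower at P21 than at P10.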

How the data were processed

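Per the labels and the methods, RNA (100 ng per array) was labelled with a 3' in vitro transcription kit and hybridized to Affymetrix mouse whole-genome expression arrays. The authors deposited log2 values made with RMA in Affymetrix Expression Console, whose notes also name MAS5; no version is given in the sources used here. RMA gives no detection calls, so a stage was called dim where both arrays lay in the lowest 25% of their array's values. Array medians ran between 6.70 and 6.79, and the number of arrays limits the precision. Values were tested as deposited with limma 3.58.1 in R 4.3.3, with stage as the factor over 12 arrays and Benjamini-Hochberg adjustment over 45037 probe sets (Python 3.11.15 for the tables). The test was checked on simulated data. The platform annotation given with the data gave 34945 probe sets 1 symbol, 932 several and 9160 none, and only the first kind is named. The brightest probe set stood for a gene. Of 997 entries in 48 gene lists, 900 matched. The members, lists and tests were chosen with earlier results of these data known. Named genes were the 12 largest called rises and falls and up to 5 called members of each list, with the study's PCR genes. Alternatives were other scalings, an intensity trend, array weights, a replicate block, the 4 arrays alone, covariates, a fold limit of 2, the methods' t-test and leaving out each array, with those on Xist, Eif2s3y and the P0 and P7 arrays added after the data were seen.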

Additional observations from a re-analysis of the deposited data

How the results depend on the processing

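With 2 arrays per stage, counts moved with the settings. Of the 5041 calls between P21 and P10 (2020 higher and 3021 lower), 4942 were among the 5152 of the replicate block, and this block changed no other count by over 1.5 times. The replicate numbers did not pair the samples, with correlations of deviations between -0.12 and 0.32. Other scalings gave 5170 and 5127 calls. Counts fell to 1704 (468 higher, 1236 lower) at a fold over 2, and to 1323 higher with the 4 arrays alone, where 31.7% of calls were higher in place of 40.1%. The methods' t-test gave 3147 probe sets (915 higher, 29.1%) at its unadjusted threshold and 3 after Benjamini-Hochberg, 0 higher and 3 lower. At its unadjusted p it gave 1 of the PCR genes and 4 each of the ribosomal and oxidative phosphorylation genes. With the Actb balance as a covariate the counts were 0 in total, 0 higher and 0 lower, and with that of Gapdh 2, 1 and 1. Leaving out 1 array gave 2341 to 4993 calls, 882 to 2411 higher and 1459 to 3015 lower, lowest without P10 replicate 2. Without P10 replicate 1 there were 2003 lower. The difference in balance lay between 1.05 and 1.34 for Actb and 1.08 and 1.36 for Gapdh without 1 array.

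For P7 against P0, the methods' t-test after Benjamini-Hochberg gave 4 (1 higher, 3 lower) and a fold over 2 gave 2081 (1211 higher, 870 lower). Leaving out 1 array gave 2929 to 5192 calls, 1629 to 2570 higher and 1300 to 2668 lower, lowest without P7 replicate 1, with 1690 lower without P0 replicate 1.

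Some named genes changed sign. With the Actb balance as a covariate the changes were Ifi27l2a -0.25, Stfa3 0.27, Pllp 0.29, Nkx6-2 -0.20, Nrp2 0.60, Fosl2 0.20, Klf4 0.42, Igf2r 0.98, Hdac8 0.27, Slc4a11 -0.01, Tnnt1 -0.63, P2ry12 0.08, C1qc 0.48, Gp1bb 0.73, C1qa 0.06, C1qb 0.33, Otx2 -0.31, Eif2s3y 4.21, Sox2 -0.63, Ednrb -0.87 and Fgf10 0.74. With the Gapdh balance they were Stfa3 1.07, Pllp 0.29, Nkx6-2 -0.18, Fdps 0.01, Lss -0.10, Stmn2 0.02, Nrp2 0.45, Fosl2 0.42, Dbp -0.05, Pcna 0.21, Igf2r 1.08, Hdac8 0.99, Tnc 0.15, Tnnt1 -0.47, P2ry12 0.42, C1qc 0.66, Gp1bb 0.03, C1qa 0.01, C1qb 0.43, Otx2 -0.12, Sox2 -0.51 and Fgf10 0.16. Ednrb was between -0.22 and 0.28 when 1 array was left out, negative without P10 replicate 2, and -0.08 with the Eif2s3y covariate. Foxd3 was 0.02 with arrays shifted to one median, 0.02 when quantile normalized again, between -0.09 and 0.07 when 1 array was left out, with 0.01 without P10 replicate 2 and 0.07 without P21 replicate 1. The cause was not tested.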
